A study of Rattus norvegicus with 46 samples.

Results

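Genes of the brain's blood vessels and of blood itself were followed in 39 pieces of rat frontal lobe after 1 dose of the insecticide chlorpyrifos, an organophosphate. The set holds 7 vessel genes (Pecam1, Slc2a1, Cldn5, Vwf, Flt1, Kdr and Tek) and 2 blood genes (Hbb and Alas2). A gene was taken where a probe set carried its symbol and no other in the annotation of the array. Of the 9 genes, 8 had such a probe set, and Tek had none. They account for 10 of the 15866 probe sets that are not controls. Hbb, Alas2, Pecam1, Slc2a1, Cldn5, Vwf and Kdr had 1 each and Flt1 had 3. All 10 passed the filter on dim probe sets, which left 11106 probe sets in the tests. The question asked was whether vessel genes follow the blood content of a tissue piece.

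Brain capillaries are tubes of endothelial cells sealed by tight junctions, and their membranes carry the transporters that feed the brain. Red cells, and the reticulocytes that still hold RNA, stay inside these vessels when an animal is killed unless they are washed out, so dissected brain carries some blood RNA. Globin mRNA is by far the main message of reticulocytes, and erythroid Alas2 makes the first step of their heme synthesis. Chlorpyrifos is turned in the body into an oxon that blocks acetylcholinesterase.

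The animals were male F344 rats aged 11 to 12 weeks, killed 96 hours after dosing in 3 separate experiments named A, B and C. Each animal gave a piece of about 30 mg, whose total RNA went onto 1 Affymetrix array. The labels name no wash of the vessels with saline and no other treatment. Experiment A gave 3 usable vehicle samples, with 3, 5 and 3 samples dosed with 1, 10 and 50 mg/kg of chlorpyrifos. Experiment B gave 4 vehicle samples, with 3, 1 and 3 dosed with 0.5, 5 and 30 mg/kg. Experiment C gave 3 vehicle samples, with 4, 3 and 4 dosed with 1, 5 and 10 mg/kg. Its vehicle animal 1 and animals 2 and 3 at 10 mg/kg bear the words first repeat in their labels, without an explanation. Among the samples used, 0.5 and 30 mg/kg come from B alone and 50 mg/kg from A alone, so those doses cannot be told apart from anything else particular to the dosed animals of that experiment.

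Of 46 deposited samples, 7 were left out because their probe sets do not stand in the order of the other columns. Their log2 correlation with the 39 used samples lay between -0.0068 and 0.0025, against 0.935 to 0.979 among the 39. The precision is limited by how many arrays there are, since a table of signals holds no read depth. The median intensity of the used samples ran from 112.3 to 286.2. The dimmest array by trimmed mean among those used was the 5 mg/kg sample of experiment B, at 205 where 44 arrays lay within 1 of 500. Values below are log2 intensities after quantile normalization, and levels of different probe sets are not set against each other.

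The regulatory sequence of 3 members is shown because the results turn on Hbb, the measure of blood, and on Cldn5 and Slc2a1, the vessel pair that moved together. Each line is the 250 bases before the RefSeq start on build GRCr8, read 5′ to 3′ on the gene's own strand. Hbb is at chr1:167663722-167663971 on the minus strand, Slc2a1 at chr5:138002272-138002521 on the plus strand and Cldn5 at chr11:95718599-95718848 on the minus strand. Capitals mark 4 motifs on either strand, namely CACCC (bound by erythroid and other zinc finger factors), CCAAT (a common promoter box), ATAAAA (the TATA-like box of globin genes) and GGGCGG (the GC box).
Hbb: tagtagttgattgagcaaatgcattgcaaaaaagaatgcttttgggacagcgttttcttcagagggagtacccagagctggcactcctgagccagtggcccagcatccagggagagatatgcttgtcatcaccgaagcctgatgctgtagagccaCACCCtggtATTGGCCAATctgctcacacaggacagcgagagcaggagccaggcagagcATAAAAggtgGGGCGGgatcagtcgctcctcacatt
Slc2a1: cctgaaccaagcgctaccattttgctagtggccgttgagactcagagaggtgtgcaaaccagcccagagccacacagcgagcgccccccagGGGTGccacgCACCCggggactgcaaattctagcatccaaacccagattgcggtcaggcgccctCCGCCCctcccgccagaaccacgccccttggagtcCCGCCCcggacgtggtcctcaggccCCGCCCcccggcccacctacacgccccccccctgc
Cldn5: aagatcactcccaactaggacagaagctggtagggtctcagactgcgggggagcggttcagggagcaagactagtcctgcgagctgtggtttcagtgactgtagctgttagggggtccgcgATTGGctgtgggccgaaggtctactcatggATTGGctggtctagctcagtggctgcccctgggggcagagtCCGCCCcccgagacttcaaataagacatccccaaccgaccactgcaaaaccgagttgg

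The Hbb window held CACCC 1 time, the ATAAAA box 1 time, the GC box 1 time and CCAAT 2 times, and none of these matches overlapped another motif. The ATAAAA match began 36 bases before the start. Slc2a1 held CACCC 2 times and GGGCGG 3 times, with 68.4% G and C against a median of 51.2% over all promoter windows of this length. Cldn5 held CCAAT 2 times and GGGCGG 1 time. These letters are common: of 33469 rat promoter windows of 250 bases, 49.2% held CACCC, 34.0% held CCAAT, 18.6% held the ATAAAA box and 30.5% held the GC box. A match is a description of the sequence and not a factor's site. The promoter table had 6 of the 8 measured members and none for Pecam1 or Vwf.

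Hbb, the beta chain of adult hemoglobin, differed more between animals of a group than 98.8% of probe sets did, with a within-group SD of 0.74. Over the 39 samples it ran from 9.71 to 13.23 (mean 11.75, SD 0.77), a range of 3.53 on the log2 scale. Its probe set has the suffix of a cross-hybridizing set and may take up other beta-globin messages. The lowest samples were 30 mg/kg animal 3 of experiment B at 9.71, 50 mg/kg animal 2 of experiment A at 10.08 and the 5 mg/kg sample of experiment B at 10.10. The highest were 10 mg/kg animal 2 of experiment C at 13.23 and 10 mg/kg animal 2 of experiment A at 12.95.

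In experiment B the 4 vehicle samples held Hbb at 11.94, 12.28, 12.16 and 12.16. The 0.5 mg/kg samples read 12.14, 11.58 and 12.24, the 5 mg/kg sample 10.10, and the 30 mg/kg samples 11.87, 9.71 and 11.50. All 3 samples at 30 mg/kg and the 1 at 5 mg/kg thus lay below every vehicle sample of that experiment, while the 0.5 mg/kg samples overlapped them. How many of all probe sets separate in this way was not counted, so the order alone does not set Hbb apart.

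In experiment A the vehicle samples read 11.57, 12.17 and 10.55, the 1 mg/kg samples 11.80, 12.59 and 10.55, and the 50 mg/kg samples 10.08, 12.35 and 11.78. The 10 mg/kg samples of A read 11.70, 12.95, 12.09, 12.19 and 12.60. In experiment C the vehicle samples read 12.67, 11.26 and 11.93, and the dosed samples lay between 11.02 and 13.23. Dosed and vehicle samples overlapped in both experiments. Fewer reticulocytes in a piece and less globin RNA per reticulocyte cannot be told apart in bulk tissue, and the same holds for vessel cells.

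**Figure D1:**
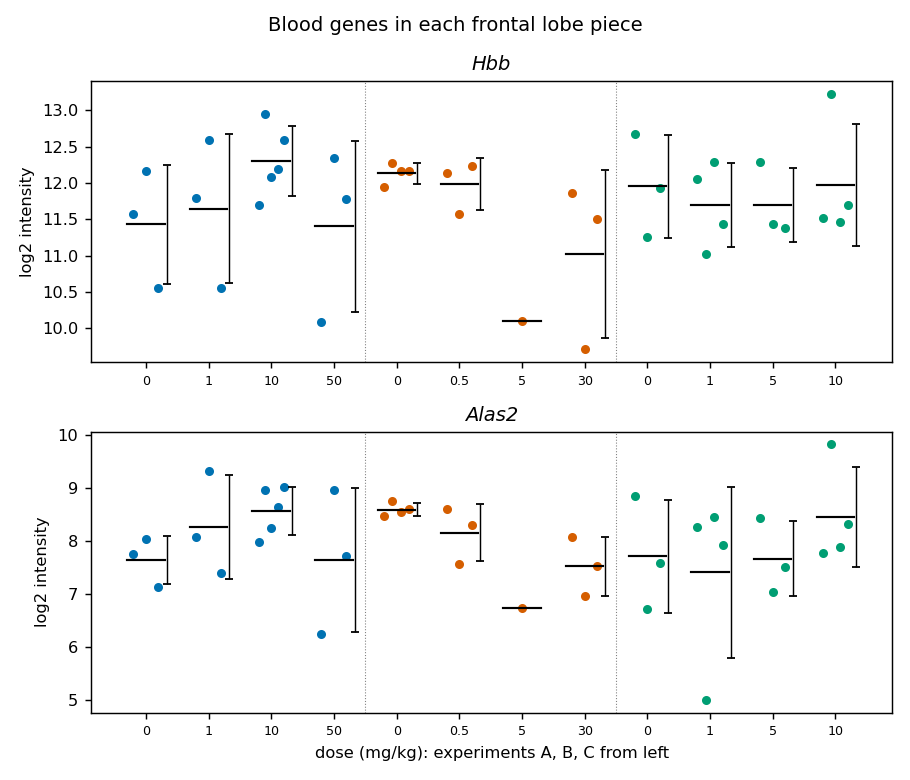
Log2 intensity of Hbb (upper) and Alas2 (lower) in each of 39 samples by dose in mg/kg, with experiments A (blue), B (orange) and C (green) from left to right. Horizontal lines are group means and error bars the SD of a group. The 5 mg/kg group of experiment B has 1 sample, at 10.10 for Hbb and 6.74 for Alas2, the lowest group in both.

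Alas2, the erythroid form of 5-aminolevulinate synthase, varied as widely, from 5.01 to 9.82 (mean 7.98, SD 0.90, n = 39). Its within-group SD of 0.90 was above that of 99.6% of probe sets. The lowest value belonged to 1 mg/kg animal 2 of experiment C, whose Hbb stood at 11.02, and the highest to 10 mg/kg animal 2 of the same experiment, which also had the highest Hbb. In experiment B the vehicle samples read 8.48, 8.75, 8.55 and 8.60, the 30 mg/kg samples 8.07, 6.96 and 7.54, and the 5 mg/kg sample 6.74. Here too every sample at 5 and 30 mg/kg lay below every vehicle sample of that experiment, and the share of all probe sets that do so was not counted.

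Alas2 rose with Hbb by 0.98 ± 0.11 log2 per log2 unit of Hbb (SE, n = 39) in a limma fit with experiment and dose as terms (adjusted p = 8.74e-07 over all probe sets). This slope passed an adjusted p of 0.05, the threshold used throughout, in 8 of 11105 probe sets, or 0.072%, all of them higher with Hbb. Alas2 was 1 of the 8. A further 5 were probe sets that the annotation gives to several globin genes at once, with slopes of 0.68 to 1.87, and are not named. The others were Rsad2, an interferon-induced antiviral enzyme, at 0.33 ± 0.07 (adjusted p = 0.0371), and Cadm3, a neuronal adhesion molecule, at 0.31 ± 0.06 (adjusted p = 0.00489). With Alas2 as the number, 8 of 11105 probe sets passed, again 0.072%, and Hbb was among them at 0.70 ± 0.08 (adjusted p = 1.49e-06).

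Over the 39 samples the Pearson correlation of Alas2 with Hbb was 0.83 (two-sided permutation p = 1e-05, the smallest that 100000 permutations can give; adjusted p = 0.0185 over 11105 probe sets), and Spearman's rho was 0.93. It was 0.94 in experiment A, 0.92 in B and 0.85 in C, and 0.83 without the 2 samples with the most extreme Hbb. Within single experiments the slope was 0.92 ± 0.10 in A (adjusted p = 0.000344), 0.54 ± 0.13 in B (adjusted p = 0.208) and 1.49 ± 0.24 in C (adjusted p = 0.0779), so only A passed alone. These slopes were not shown to differ (adjusted p = 0.463 in the F test described with the vessel genes).

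The other red cell genes gave fewer measurements. Of 26 listed globin, heme and red cell membrane genes, 13 had a probe set of their own and 7 passed the filter on dim probe sets. None of the 7 passed the test for a slope on Hbb. Hba-a3, an alpha globin, came closest at 0.62 ± 0.14 (adjusted p = 0.104), and Fech, the ferrochelatase that closes heme synthesis, stood at 0.08 ± 0.05 (adjusted p = 0.892). Slc4a1, the band 3 anion exchanger of the red cell membrane, is also on the list, and its probe sets disagreed, with 0.05 ± 0.06 (adjusted p = 0.992) for one and 0.23 ± 0.06 (adjusted p = 0.21) for the other. By the correlation with experiment means removed, the 5 genes most like Hbb outside the set were Rsad2 at 0.67, the second of these Slc4a1 probe sets at 0.61, Cyp51 and Aff2 at 0.58 and Heatr6 at 0.57 (n = 39, a description over samples that share experiments).

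The vessel genes varied less than the blood genes. Except for Cldn5, their within-group SD still exceeded that of most probe sets, from 69.2% of them for Kdr to 95.1% for Vwf. Cldn5, the main claudin of the tight junctions of brain capillaries, ran from 10.15 to 10.96 (mean 10.41, SD 0.19, n = 39), and its within-group SD of 0.17 exceeded that of 32.1% of probe sets. Most of its samples lay close together. Only 30 mg/kg animal 3 and the 5 mg/kg sample of experiment B, at 10.96 and 10.79, lay above every sample of experiments A and C.

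In experiment A, Cldn5 read 10.18, 10.23 and 10.40 in the vehicle samples, 10.50, 10.26 and 10.55 after 1 mg/kg, 10.57, 10.45, 10.32, 10.25 and 10.47 at 10 mg/kg, then 10.22, 10.22 and 10.26 for the 50 mg/kg animals. In experiment B it read 10.21, 10.39, 10.15 and 10.35 in the vehicle samples, 10.37, 10.45 and 10.43 at 0.5 mg/kg, 10.79 at 5 mg/kg, then 10.32, 10.96 and 10.42 for the 30 mg/kg animals. In experiment C it read 10.48, 10.48 and 10.30 in the vehicle samples, 10.22, 10.56, 10.30 and 10.40 after 1 mg/kg, 10.19, 10.31 and 10.76 at 5 mg/kg, then 10.77, 10.61, 10.54 and 10.37 for the 10 mg/kg animals. Doses overlapped the vehicle samples of their own experiment, except that the 1 sample at 5 mg/kg in B lay above them.

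Slc2a1, the glucose transporter GLUT1 of capillary endothelium, which astrocytes also make, ran from 9.87 to 11.52 (mean 10.62, SD 0.33). In experiment B it read 10.21, 10.37, 9.87 and 10.31 in the vehicle samples, 10.48, 10.57 and 10.32 at 0.5 mg/kg, 10.95 at 5 mg/kg, then 10.58, 11.52 and 10.49 for the 30 mg/kg animals. The 5 and 30 mg/kg samples of B lay above every vehicle sample of B, the reverse of their order for Hbb. The share of all probe sets with such an order was not counted. In experiments A and C, Slc2a1 ran from 10.16 to 10.87 and from 10.28 to 11.33, with doses and vehicle overlapping at every dose.

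Vwf, the clotting factor that endothelial cells store and release, ran from 7.07 to 9.07 (mean 8.0, SD 0.57). The highest reading was again 30 mg/kg animal 3 of experiment B, at 9.07. In experiment C the 4 samples at 10 mg/kg, at 8.40, 8.91, 8.74 and 8.93, lay above the 3 vehicle samples, at 7.75, 8.33 and 7.70. Again the share of all probe sets that separate in this way was not counted. In experiment A the 5 samples at the same dose read 8.40, 8.0, 7.42, 7.07 and 7.31 and overlapped the vehicle samples at 8.19, 7.35 and 7.89.

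Pecam1, an adhesion molecule of endothelial junctions that platelets and white cells also carry, ran from 5.81 to 7.50 (mean 6.92, SD 0.39). The 4 vehicle samples of experiment B, at 6.47, 6.43, 5.81 and 6.64, were the lowest group, with a mean of 6.34. Kdr, the main signalling receptor for vascular endothelial growth factor, ran from 7.54 to 8.78 (mean 8.20, SD 0.26), and Flt1, which binds the same ligand with less signalling, from 6.42 to 8.51 (mean 8.01, SD 0.35). The low end of Flt1 was a single sample, 1 mg/kg animal 1 of experiment C at 6.42, against 7.82 to 7.99 in the rest of its group. That sample also had the highest ratio of the 3′ to the 5′ beta-actin probe set of the 39, 4.72 against 2.15 in the next, and the part of RNA quality in it was not tested.

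With the 12 groups ordered by mean, neighbours overlapped in 11 of 11 places for Hbb, Alas2, Cldn5, Slc2a1, Vwf, Pecam1 and Kdr, and in 10 of 11 for Flt1. Groups sorted by their own means tend to overlap with their neighbours, and the count was not made for other probe sets. It therefore sets no member apart, and the order of single groups is a description. Hbb was highest at 10 mg/kg in experiment A, with a mean of 12.31, and lowest at 5 mg/kg in B. Cldn5, Slc2a1 and Kdr were highest at 5 mg/kg in B, a group of 1 sample.

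**Figure D2:**
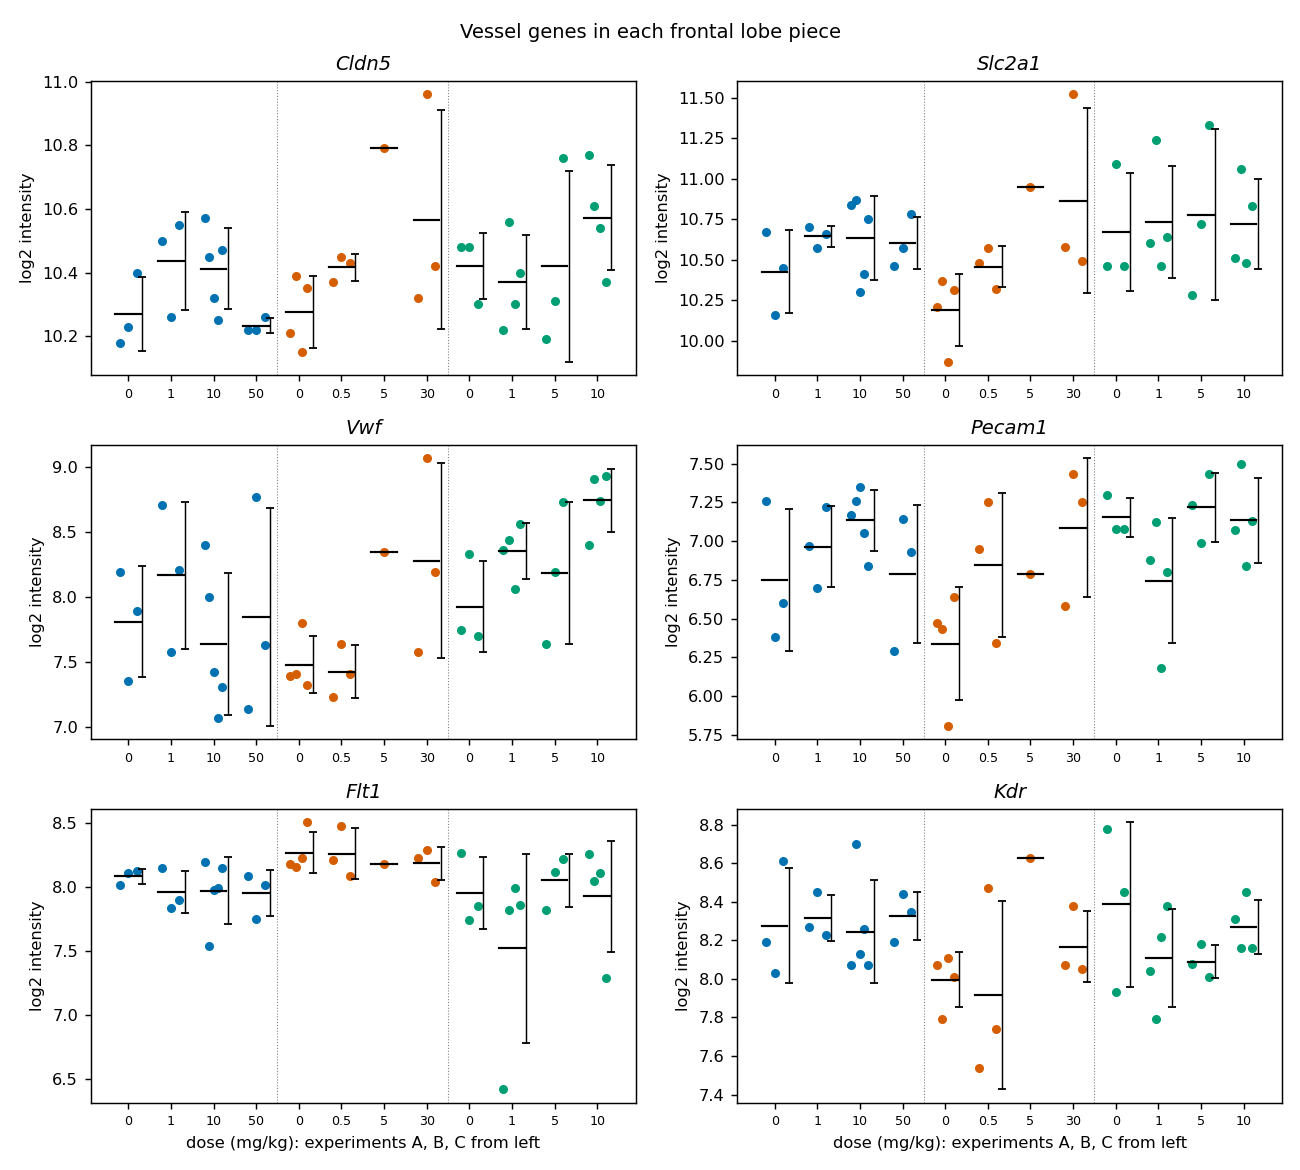
Log2 intensity of the 6 vessel genes in each of 39 samples by dose in mg/kg, with experiments A (blue), B (orange) and C (green) from left to right, group means as horizontal lines and the SD of a group as error bars. In experiment B, 30 mg/kg animal 3 has the highest Cldn5 (10.96), Slc2a1 (11.52) and Vwf (9.07) of all samples.

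No member passed the test against vehicle at any of the 6 doses in limma, with 0 of 8 called at each. The same fit called 0 of 11106 probe sets (0%) at 0.5, 1, 5, 10 and 30 mg/kg and 2 (0.018%) at 50 mg/kg. At an unadjusted p under 0.05, it had 846, 282, 275, 298, 1027 and 887 probe sets at the 6 doses in rising order. Among the members 1 had such a p at 10 mg/kg, Cldn5, and 2 at 30 mg/kg, Pecam1 and Slc2a1.

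The largest differences of vessel genes stood at 30 mg/kg. Against vehicle, with experiment as a term, Pecam1 differed by 0.73 ± 0.25 (SE; adjusted p = 0.365 in limma), or 1.65-fold, Slc2a1 by 0.60 ± 0.22 (adjusted p = 0.396) and Vwf by 0.69 ± 0.35 (adjusted p = 0.554). Hbb differed by -0.83 ± 0.53 (adjusted p = 0.674) and Alas2 by -0.79 ± 0.63 (adjusted p = 0.751), the opposite sign. These differences rest in good part on 1 animal. Without 30 mg/kg animal 3 of experiment B, the estimate was 0.55 for Pecam1, 0.27 for Slc2a1, 0.29 for Vwf and 0.03 for Cldn5, which had been 0.23.

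Of the 6 vessel genes, 5 had a positive estimate at 30 mg/kg, with a median of 0.41, against a median of 0.0058 over all probe sets. Of 11 other endothelial genes that could be tested, 8 were positive, with a median of 0.20 and 0 called. In experiment B the ratio of 3′ to 5′ beta-actin was 1.66 to 2.15 in the vehicle samples and 1.32 to 1.61 in the dosed ones, with no overlap. Its median was 1.91 in the vehicle samples, 1.37 at 0.5 mg/kg and 1.56 at 30 mg/kg, with 1.41 in the 1 sample at 5 mg/kg, so it was lower in dosed samples but did not fall from dose to dose. The part of this measure of RNA quality in these differences was not tested.

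At 50 mg/kg, a dose of experiment A alone, the members stood closer to vehicle, with Pecam1 at -0.12 ± 0.25, Cldn5 at -0.04 ± 0.13 and Hbb at -0.41 ± 0.53 (adjusted p = 0.95, 0.975 and 0.905). At 10 mg/kg Cldn5 differed by 0.19 ± 0.09 (adjusted p = 0.999). Fitted alone, experiment C gave Vwf 0.82 ± 0.23 at 10 mg/kg (adjusted p = 1), and experiment A gave -0.17 ± 0.37 (adjusted p = 0.976). Of 8 ligands and co-receptors of vessel growth none passed at any dose. Pgf, the placental growth factor that binds Flt1, had 0.98 ± 0.27 at 0.5 mg/kg (adjusted p = 0.375) and 0.75 ± 0.27 at 30 mg/kg (adjusted p = 0.385).

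Across doses the trend on log2(dose + 1) called 0 of 8 members and 0 of 11106 probe sets (0%), while 851 had a p under 0.05 before adjustment. Slc2a1 had the lowest p among members, at 0.06 ± 0.03 per unit (adjusted p = 0.554). A moderated F test of all doses together called 0 of 8 members and 0 of 11106 probe sets (0%), while 687 had a p under 0.05 before adjustment, and Pecam1 came closest among members (adjusted p = 0.823).

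The experiments could be set against each other in their vehicle samples and at the doses they shared. Between the 3 vehicle groups, 733 of 11106 probe sets (6.6%) differed by the F test, and 0 of 8 members did. With so few members that count cannot be told apart from the share over all probe sets. Before adjustment, 2 members and 2719 probe sets had a p under 0.05 in this test. Pecam1 came closest (adjusted p = 0.16), with vehicle means of 6.75 ± 0.46 (SD, n = 3) in A, 6.34 ± 0.36 (n = 4) in B and 7.15 ± 0.13 (n = 3) in C. Without vehicle animal 1 of experiment C, 1 member was called, Alas2 (adjusted p = 0.0268). The share of all probe sets called in that fit was not recorded, so this call cannot be set against it. The effect of 1 mg/kg and that of 10 mg/kg did not pass a test of the difference between A and C for any of 8 members, nor for any of 11106 probe sets (0% at each dose), while 816 and 735 had a p under 0.05 before adjustment. The largest such difference was that of Vwf at 10 mg/kg, -0.99 ± 0.47 for A minus C (adjusted p = 0.737).

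No vessel gene passed a test for a rise with the blood genes. In the fit with experiment and dose, 0 of 6 vessel genes passed the test for a slope on Hbb, for which 0.072% of all probe sets passed, and all 6 slopes were below 0, with a median of -0.09 against -8.36e-05 over all probe sets. The lowest p was that of Cldn5, with -0.12 ± 0.04 log2 per log2 unit of Hbb (adjusted p = 0.302). Slc2a1 stood at -0.15 ± 0.07 (adjusted p = 0.739), Vwf at -0.21 ± 0.11 (adjusted p = 0.83), Flt1 at -0.06 ± 0.08, Kdr at -0.04 ± 0.06 and Pecam1 at -0.02 ± 0.08.

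With Alas2 as the number, 0 of 6 vessel genes passed and 5 of the 6 slopes were below 0. Kdr was the other, at 0.03 ± 0.05 (adjusted p = 0.947). Cldn5 had -0.08 ± 0.03 (adjusted p = 0.473) and Slc2a1 -0.12 ± 0.06 (adjusted p = 0.512). Of the 11 other endothelial genes, 0 passed on Hbb and 10 had a slope below 0, with a median of -0.07. Esam, an adhesion molecule of endothelial junctions, had the lowest p of these, at -0.17 ± 0.06 (adjusted p = 0.457), followed by Ptprb, the vascular endothelial protein tyrosine phosphatase. Transporters and junction genes of the barrier did not share this sign, with 6 of 10 slopes above 0 and a median of 0.00.

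**Figure D3:**
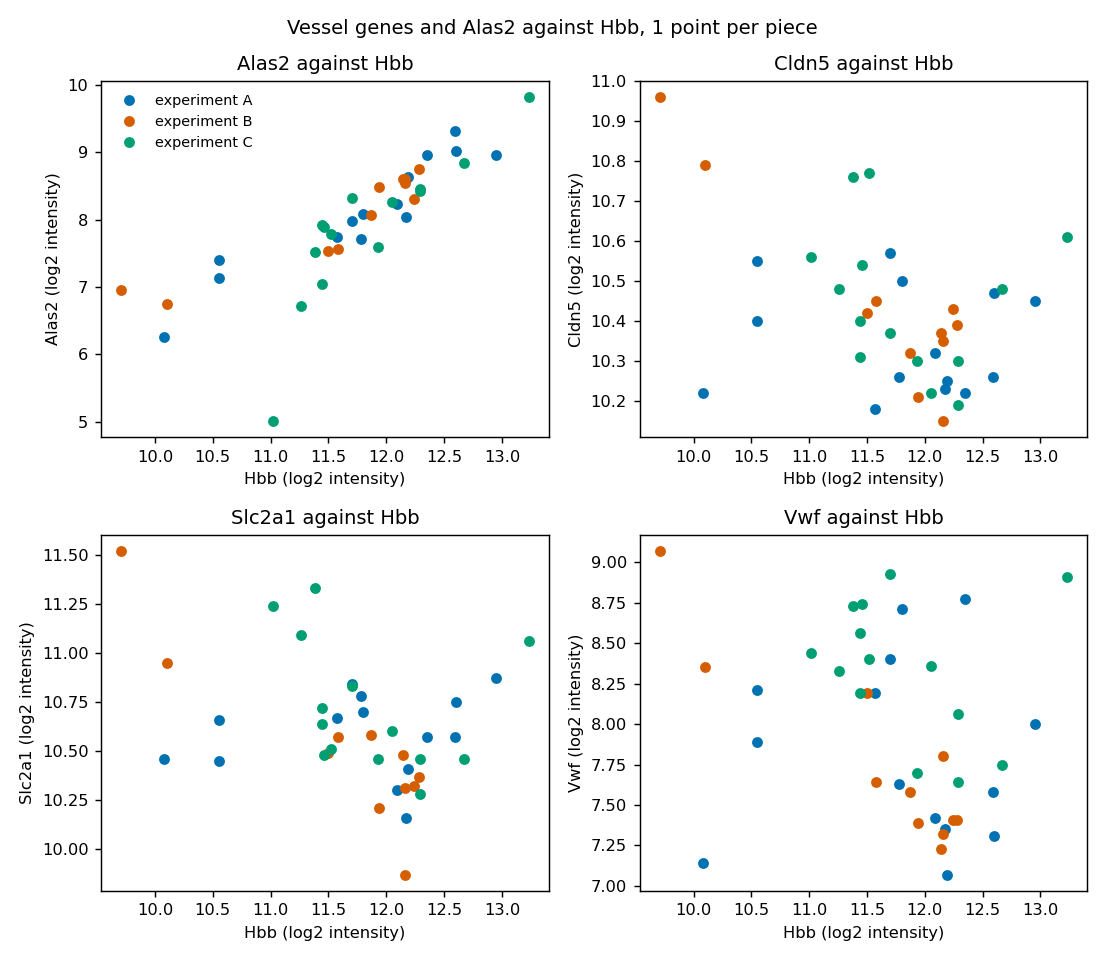
Log2 intensity of Alas2, Cldn5, Slc2a1 and Vwf (vertical axes) against that of Hbb (horizontal axes), 1 point for each of 39 samples, coloured by experiment. Alas2 climbs with Hbb in all 3 experiments, while the lowest Hbb, 9.71 in experiment B, goes with the highest Cldn5, Slc2a1 and Vwf.

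The pooled Pearson correlation with Hbb over 39 samples was -0.42 for Cldn5 (permutation p = 0.00722, adjusted p = 0.538), -0.37 for Slc2a1 (permutation p = 0.0202, adjusted p = 0.773), -0.28 for Vwf, -0.14 for Flt1, -0.11 for Kdr and -0.03 for Pecam1. None of the 6 passed, where 7 of 11105 probe sets (0.063%) did. Spearman's rho was -0.33 for Cldn5, -0.37 for Slc2a1, -0.36 for Vwf, -0.13 for Flt1, -0.07 for Kdr and -0.06 for Pecam1 (permutation p = 0.0373, 0.0218, 0.0239, 0.437, 0.667 and 0.721), with 0 past adjustment where 9 of 11105 probe sets (0.081%) were. Without the 2 samples with the most extreme Hbb, 30 mg/kg animal 3 of B and 50 mg/kg animal 2 of A, Pearson's r was -0.38 for Cldn5, -0.27 for Slc2a1 and -0.30 for Vwf.

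The values of r stood apart by experiment. In experiment B (n = 11), r with Hbb was -0.92 for Vwf (permutation p = 0.0003, adjusted p = 0.118), -0.91 for Cldn5 (permutation p = 0.00249, adjusted p = 0.209), -0.89 for Slc2a1 (permutation p = 0.00057, adjusted p = 0.129), -0.74 for Kdr, -0.60 for Pecam1 and -0.04 for Flt1. In experiment A (n = 14) it was 0.00 for Vwf, -0.06 for Cldn5, 0.16 for Slc2a1, 0.11 for Kdr, 0.34 for Pecam1 and -0.43 for Flt1. In experiment C (n = 14) it was -0.22 for Vwf, -0.20 for Cldn5, -0.32 for Slc2a1, 0.38 for Kdr, 0.16 for Pecam1 and 0.00 for Flt1. No vessel gene passed after adjustment within any experiment, where 6 (0.054%), 0 (0%) and 4 (0.036%) of 11105 probe sets did in A, B and C.

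Single samples set much of these values. Without the 2 samples of experiment B at Hbb 9.71 and 10.10, r in B (n = 9) was -0.27 for Cldn5, -0.51 for Slc2a1, -0.69 for Vwf, -0.67 for Kdr and -0.73 for Pecam1. In experiment C the 2 samples farthest from its median of Hbb were 10 mg/kg animal 2 at 13.23 and vehicle animal 1 at 12.67, and both are labelled as a first repeat. Without them r in C (n = 12) was -0.68 for Cldn5, -0.74 for Slc2a1 and -0.58 for Vwf, none past adjustment (permutation p = 0.0172, 0.00668 and 0.0479, adjusted p = 0.798, 0.764 and 0.866). In experiment A the same step, without 50 mg/kg animal 2 and vehicle animal 4, gave -0.27 for Cldn5, -0.05 for Slc2a1 and -0.32 for Vwf (n = 12). These within-experiment values without 2 samples were added after the data had been seen.

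The slopes on Hbb by experiment followed the same lines, at -0.26 ± 0.07 for Cldn5, -0.45 ± 0.10 for Slc2a1 and -0.60 ± 0.13 for Vwf in B, -0.06 ± 0.04, 0.02 ± 0.07 and 0.09 ± 0.19 in A, and -0.09 ± 0.09, -0.17 ± 0.15 and -0.19 ± 0.14 in C, which shared the sign of B. A moderated F test of whether the slope on Hbb differed between experiments, added after the data had been seen, called 0 of 7 members and 1 of 11105 probe sets (0.009%). The adjusted p was 0.501 for Slc2a1, 0.595 for Cldn5, 0.718 for Vwf and 0.414 for Kdr. The stronger inverse relation with Hbb in B was thus not shown to differ from the other experiments. On Alas2 the same F test called 0 of 7 members and 0 of 11105 probe sets (0%). Kdr came closest there among the members (adjusted p = 0.118), with slopes on Alas2 of -0.60 ± 0.16 in B, 0.08 ± 0.08 in A and 0.11 ± 0.06 in C. In B, Hbb, Alas2 and the actin ratio were lower in the samples at 5 and 30 mg/kg than in every vehicle sample, though neither blood gene passed the trend on dose there (adjusted p = 0.349 for Hbb and 0.301 for Alas2 in limma). Dose is a term of the slopes but not of the correlations.

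**Figure D4:**
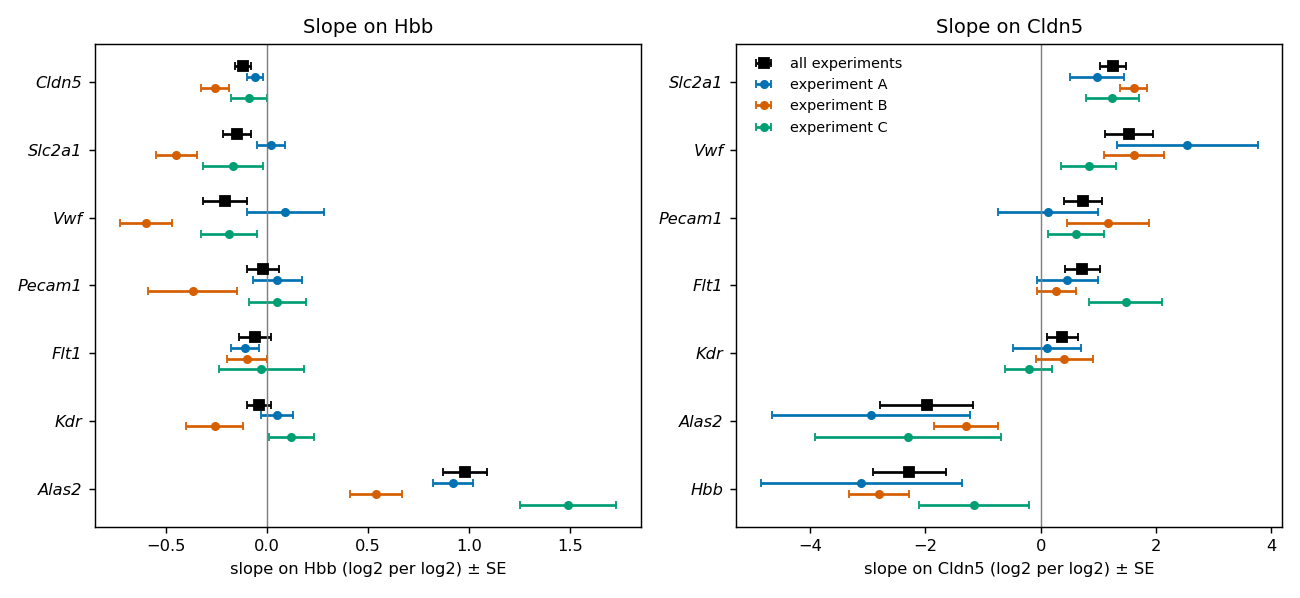
Slope of each gene on Hbb (left) and on Cldn5 (right), in log2 per log2 unit, with the SE as bars, from the fit of all 39 samples (black squares) and of experiments A, B and C alone (coloured circles). On Hbb the vessel genes lie left of 0 in the fit of all samples, with Alas2 at 0.98, and on Cldn5 the blood genes lie left of 0, with Hbb at -2.28.

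The vessel genes were then set against one of their own, Cldn5, in the same kind of fit. Slc2a1 rose with it by 1.25 ± 0.22 log2 per log2 unit of Cldn5 (adjusted p = 0.00417) and was the 1 of 5 vessel genes that passed, against 96 of 11105 probe sets (0.864%), of which 71 were higher (0.639%) and 25 lower (0.225%). All 5 slopes were above 0, with a median of 0.73. Vwf stood at 1.53 ± 0.41 (adjusted p = 0.0721), Pecam1 at 0.73 ± 0.33 (adjusted p = 0.37), Flt1 at 0.72 ± 0.30 (adjusted p = 0.328) and Kdr at 0.37 ± 0.27 (adjusted p = 0.646). The blood genes had the opposite sign, with Hbb at -2.28 ± 0.63 (adjusted p = 0.075) and Alas2 at -1.98 ± 0.81 (adjusted p = 0.311). The slope of Hbb passed in 5 of 56 alternatives, with an adjusted p of 0.0161 without the first-repeat samples. The others were 4 of 39 fits without 1 sample (adjusted p down to 0.0351 in limma), each lacking animal 2 at 50 mg/kg in A, or vehicle animal 1, animal 2 at 10 mg/kg or animal 4 at 10 mg/kg in C.

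For Slc2a1 the slope on Cldn5 was 0.97 ± 0.47 in A, 1.61 ± 0.24 in B and 1.24 ± 0.46 in C, and it was not called within any single experiment. It also lost its call without 30 mg/kg animal 3 of experiment B (adjusted p = 0.118), while the other 38 fits without 1 sample each kept it. The count of 96 probe sets also rested on single samples. It was 3 without that animal, 17 without 5 mg/kg animal 1 of experiment C and 34 without the 5 mg/kg sample of B.

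Other endothelial genes went the same way. Of 11 tested, 3 rose with Cldn5: Ptprb by 1.11 ± 0.26 (adjusted p = 0.0246), Esam by 0.93 ± 0.22 (adjusted p = 0.0352) and Icam2, an endothelial ligand of white cell integrins, by 0.75 ± 0.19 (adjusted p = 0.0468). Of the 11, 9 had a slope above 0, with a median of 0.50, against a median of -0.00801 over all probe sets. Without 30 mg/kg animal 3 of B, 0 of the 11 passed, 9 had a slope above 0 and the median was 0.40. Icam2 lost its call in most of the fits without 1 sample, and Esam in several. With each group of experiment and dose as its own term, 1 of the 11 passed, Esam. None of 10 barrier transporters and junction genes, 8 angiogenic ligands and co-receptors and 9 pericyte and vessel muscle genes passed. Of these lists 9 of 10, 3 of 8 and 8 of 9 slopes were above 0, with medians of 0.14, -0.12 and 0.30.

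Genes of other cells rose with Cldn5 as well. Of 5 microglial genes 2 did, C1qb, a chain of the first complement component, by 2.65 ± 0.49 (adjusted p = 0.00806) and Csf1r, the receptor that microglia need to survive, by 0.89 ± 0.19 (adjusted p = 0.0123). Of 3 white cell and platelet genes Lyz2, a lysozyme of myeloid cells, rose by 1.52 ± 0.38 (adjusted p = 0.0439). None of these passed without 30 mg/kg animal 3 of B, or with each group of experiment and dose as its own term. Lyz2 also lost its call in many other fits without 1 sample. In the fit of all samples, all 5 microglial slopes were above 0, with a median of 0.89, above that of either endothelial list. Of the 3 white cell and platelet slopes 2 were above 0, with a median of 0. No neuronal, astrocytic, oligodendrocyte, choroid plexus or meningeal gene on the lists passed, out of 6, 5, 4, 4 and 8 tested. Slopes above 0 numbered 1, 4, 3, 0 and 6 in these lists. In log2 of their summed level, the microglial genes ran from 10.83 to 11.05 in the vehicle samples of B and from 10.91 to 11.66 at 30 mg/kg, and from 10.93 to 11.72 in the vehicle samples of C. Whether microglial content has a part in the slopes on Cldn5 was not tested.

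The members fell apart into groups when all pairs were compared with experiment means removed (n = 39; the values share arrays, experiments and scaling and are a description). Slc2a1 with Cldn5 had r = 0.73, Slc2a1 with Vwf 0.62, Pecam1 with Slc2a1 0.58, Cldn5 with Vwf 0.57, Pecam1 with Cldn5 0.49 and Pecam1 with Vwf 0.40. Flt1 and Kdr stood outside, with 0.14 between them, and the highest value of either with another member was 0.32, for Flt1 with Cldn5. Hbb with Alas2 had 0.85. Between blood and vessel genes the values ran from -0.44, for Cldn5 with Hbb, to 0.05, for Kdr with Alas2.

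**Figure D5:**
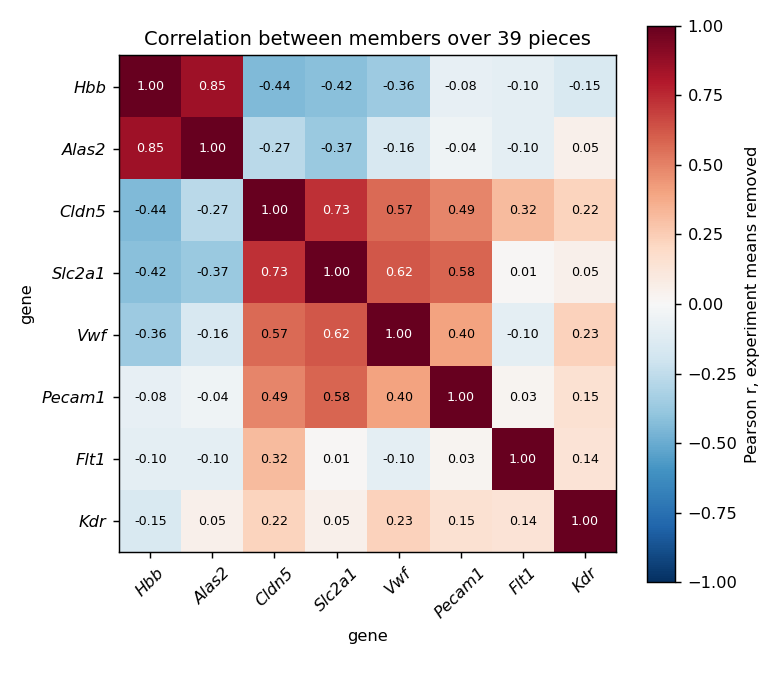
Pearson correlation between members over 39 samples with the mean of each experiment removed, blue below 0 and red above 0, with the value in each cell. Hbb and Alas2 form one block (0.85), Cldn5, Slc2a1, Vwf and Pecam1 another (0.40 to 0.73), and Flt1 and Kdr belong clearly to neither. Values without single samples were not taken.

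The 3 probe sets of Flt1 did not report the same pattern. The brightest, used above, had r = 0.45 and -0.31 with the other two, which had 0.12 with each other. The splice-variant set among them rose with Cldn5 by 0.93 ± 0.22 (adjusted p = 0.0363), while the brightest did not pass. The slope of the brightest on Cldn5 was 0.72 ± 0.30 (adjusted p = 0.328 in limma). The remaining set had 0.94 ± 0.38 (adjusted p = 0.311). Differences between these slopes were not tested. Correlations with the other members were taken for the brightest set only. Whether the weak place of Flt1 among the vessel genes depends on the probe set was thus not tested.

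By likeness over 39 samples with experiment means removed, the genes outside the set nearest to Cldn5 were Adgrf5, an adhesion receptor of endothelium, at 0.75, C3, the central complement component, at 0.72, Srgn, a proteoglycan of secretory granules, and Adgrl4, another endothelial adhesion receptor, at 0.71, and Fam107a at 0.71. Adgrf5 had 0.74, 0.72 and 0.78 within A, B and C, while Adgrl4 had 0.26, 0.90 and 0.67. Nearest to the mean of the 6 vessel genes, each scaled to unit spread, were Tgm2, Ptges and Lrg1 at 0.76, Ndrg2 at 0.75 and Icam2 at 0.74.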

How the data were processed

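The deposited table holds 1 linear signal intensity per probe set and sample, from total RNA made into biotin-labelled cRNA per the labels' protocols. From the values, the authors scaled most arrays to a trimmed mean near 500, with software not given in the sources used here. Members and gene lists were chosen with earlier results of these data known. Each array was brought to the same median, values under the 5th percentile (10.8) were raised to it, and log2 values were quantile normalized. Probe sets with a mean under the 30th percentile were left out. Probe sets were named from the platform annotation supplied with the series: 12783 have 1 symbol, 312 several and 2771 none. Where a gene had several probe sets, the one with the highest mean was used. limma 3.58.1 in R 4.3.3 (moderated tests, prior trend, Benjamini-Hochberg adjustment over all probe sets, threshold 0.05) fitted experiment plus dose, experiment plus log2(dose + 1), and experiment plus dose plus the log2 value of Hbb, Alas2 or Cldn5. Correlations used 100000 permutations of the samples, two-sided, free across doses and, in the pooled values, across experiments. Their p-values thus also take up differences between doses and experiments. The fits were tested on simulated data with known changes.

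All 8 measured members are named with every probe set. From each other list, up to 4 called genes with the largest absolute estimate could be named, or else the 2 with the lowest p. The 5 genes most like Hbb, Cldn5 and the vessel mean follow by rank. Of 46 samples, 7 with a median log2 correlation under 0.5 with the other columns were left out, among them both at 30 mg/kg in experiment C. In experiment B the vehicle samples also have a description that speaks of 1 mg/kg; title and source say vehicle, and they were kept as such. The labels number 1 animal per array, and the p-values of the fits measure only the spread between these animals. Promoter sequences are RefSeq's, on GRCr8. Other scalings, floors, filters, terms and sets of samples were tried as alternatives. The test of slopes between experiments, and correlations within an experiment without its 2 extreme samples, were added after the data had been seen.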

Additional observations from a re-analysis of the deposited data

Results flagged for a closer look

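Each of the 8 measured members was checked in every group of 4 or 5 samples for a sample far from the rest. That made 32 checks, of which 3 found one, where chance gives about 1 in 20. The checks share samples and are not independent of each other. Hbb stood at 13.23 in 10 mg/kg animal 2 of experiment C, against 11.46 to 11.70 in the rest of its group, and that sample is labelled as a first repeat. Alas2 stood at 5.01 in 1 mg/kg animal 2 of experiment C, against 7.92 to 8.45, while Hbb of that sample, at 11.02, was the lowest of the group by a smaller margin. Flt1 stood at 6.42 in 1 mg/kg animal 1 of experiment C, against 7.82 to 7.99. Of 24 comparisons of direction between experiments, 1 opposed in every sample: at 5 mg/kg, Kdr minus its vehicle mean was 0.63 in the 1 sample of experiment B and -0.3 in experiment C, where the 3 samples lay at -0.38 to -0.21. That difference was not tested.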

How the results depend on the processing

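The counts of members called at each dose, for the trend and for any dose, and of vessel genes called for the slopes on Hbb and Alas2, stayed at 0 under every alternative run. The count of vessel genes called for the slope on Cldn5, 1 of 5, was 4 with the deposited intensities and no rescaling, where 4402 of 11105 probe sets rose with Cldn5, and 2 with no dose term. It was 0 without experiment B, 0 in each experiment alone, 0 without the 2 samples with the most extreme Cldn5, and 0 to 2 with 1 sample left out at a time, with 0 without 30 mg/kg animal 3 of experiment B. The count of members that differed between vehicle groups, 0, was 1 without the samples labelled as a first repeat and 0 to 1 with 1 sample left out. For these fits the share of all probe sets called was not recorded. With the animal number as a replicate block, the slope on Cldn5 called 1 vessel gene, and the slopes on Hbb and Alas2 called 0. Samples with the same number did not deviate together over all probe sets (median r 0 over 43 pairs, 0 over 135 pairs with other numbers). This measure cannot exclude a pairing that touches only some genes. With the block, 124 probe sets were called on Cldn5, where 96 were reported. The slope of Alas2 on Hbb was called in 53 of 55 alternatives, and that of Slc2a1 on Cldn5 in 50 of 56. A mean of several Hbb probe sets was not run, since only 1 carries that symbol alone. Over all probe sets, 96 were called on Cldn5, and median scaling alone left 19 higher and 2 lower. On Hbb, 13 rose and 23 fell without the samples labelled as a first repeat, where 8 and 0 were reported, and 2501 rose and 6 fell with the deposited intensities.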

Other observations

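The genes named here were chosen after their values were seen, among the 96 probe sets called for a slope on Cldn5, and a single sample decides that count (3 without 30 mg/kg animal 3 of experiment B). With median scaling alone, 19 probe sets were called higher and 2 lower with Cldn5, where the reported fit had 71 and 25. Most of the calls below for a slope under 0 therefore also depend on the quantile normalization. They are single genes with no list behind them, and no statement on a pathway was tested. The rest of the 25 called lower are not named, and genes of sterol synthesis that did not pass were not counted. Tm7sf2, a sterol reductase, had -2.73 ± 0.60 log2 per log2 unit of Cldn5 (SE, n = 39; adjusted p = 0.0173), and Sqle, squalene epoxidase, had -1.68 ± 0.34 (adjusted p = 0.00895). Acat2 stood at -1.32 ± 0.28 (adjusted p = 0.0123) and Dhcr7, which makes the last reduction to cholesterol, at -0.73 ± 0.17 (adjusted p = 0.0245). Both probe sets of Idi1 passed, at -1.13 ± 0.23 (adjusted p = 0.0123) and -0.99 ± 0.23 (adjusted p = 0.0263). Fdft1 and Cyp51 passed in 1 of their 2 probe sets, at -1.03 ± 0.20 (adjusted p = 0.00843) and -1.22 ± 0.25 (adjusted p = 0.0123). On Hbb the same genes had slopes above 0, with none past the threshold.

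Other genes chosen in the same way had slopes above 0. C1qa rose by 2.45 ± 0.41 (adjusted p = 0.0029), C1qc by 2.18 ± 0.38 (adjusted p = 0.00417) and C3 by 2.41 ± 0.39 (adjusted p = 0.0029). Ptges, the inducible prostaglandin E synthase, rose by 2.95 ± 0.56 (adjusted p = 0.00843) in 1 of its 2 probe sets, and Tgm2, a transglutaminase, by 3.01 ± 0.60 (adjusted p = 0.00843). Fkbp5, a glucocorticoid-induced chaperone, rose by 1.42 ± 0.32 (adjusted p = 0.0245).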
